A study of Gallus gallus with 6 samples.

Results

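K11-5 cells were compared with K11 cells, 2 DT40 lines described by the labels as a complete H1 null and as a knock out of endogenous H1. All deposited probe sets other than the AFFX controls and the RPTR reporters were compared, which left 38382 of 38535, and 4 of the 6 arrays of the series carry the comparison. DT40 is a B cell line of the chicken. The other 2 arrays came from wild type DT40 cells and are set beside the results as a further value. Every group, wild type included, grew at 39.5 °C in medium with 100 nM Z-VAD-FMK, an inhibitor of caspases, because cells without H1 undergo apoptosis, and total RNA was taken during exponential growth. How the K11-5 line was made from or differs from K11, and whether each line is 1 clone, the sources used here do not say. Separate cultures for the 2 arrays of a group are not stated in the labels, so a p-value covers only the spread between arrays, which may be technical, and the number of arrays limits the precision.

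Linker histone H1 sits on the nucleosome where DNA enters and leaves it and helps fold the nucleosome chain, while the core histones H2A, H2B, H3 and H4 form the nucleosome itself. DT40 cells carry immunoglobulin on their surface. In B cells that receptor signals through the CD79 chains to the kinases LYN, SYK and BTK, and from there to phospholipase C gamma, phosphoinositide 3-kinase and Ras. The same cells load peptides on MHC class II molecules with the help of the invariant chain CD74.

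The arrays of the lines overlapped at the linker histone probe sets. HIST1H111L, the brightest of them, had signals of 4793 and 4442 in K11-5, 5810 and 1597 in K11, and 1642 and 2185 in wild type. The K11 arrays lay on either side of the K11-5 arrays. The log2 difference was 0.60 ± 0.44 (SE), with limma's adjusted p = 0.525. It was -0.33 without K11 replicate 2 (adjusted p = 0.307) and 1.53 without K11 replicate 1, where it passed (adjusted p = 0.0141). HIST1H111R, a second linker histone, was dim, with 34.7 and 16.8 in K11-5, 33.0 and 21.3 in K11, and 9.17 and 1.17 in wild type, and did not pass (log2 difference -0.12 ± 0.63, limma's adjusted p = 0.948). H1FOO, the linker histone of oocytes, was too dim to be tested, at 3.94 and 2.22 in K11-5, 3.35 and 13.2 in K11, and 2.32 and 1.94 in wild type. For HIST1H111L both K11-5 arrays lay above both wild type arrays, although the line is labelled a complete H1 null. The sources used here do not place these probe sets inside or outside the deleted stretches. How this signal bears on the label was not tested.

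Signals are deposited probe set intensities after quantile normalization, and differences are K11-5 minus K11 in log2(signal + 2), which understates the change of dim probe sets. A probe set passed when limma's adjusted p was below 0.05. Background was taken as a signal of 11.4, the upper range of control probe sets with no target in chicken RNA, and where the dimmer line's mean lay under it a change is given as "at least". Such a bound is for the group means and need not hold for each pair of arrays. Trimmed means of the deposited signals ran from 59.5 to 68.5 in K11-5, 48.0 to 56.1 in K11 and 66.8 to 77.8 in wild type. The actin control ratio of 3' to 5' signal, a measure of RNA integrity and labelling, separated the lines, at 6.29 and 5.28 in K11-5, 9.23 and 9.31 in K11, and 8.10 and 7.15 in wild type. The same ratio for GAPDH overlapped, at 0.914 and 0.798 in K11-5, 0.832 and 0.819 in K11, and 0.892 and 0.917 in wild type. The part of RNA integrity in the results was not tested.

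Of 23029 probe sets bright enough to test, 264 were higher in K11-5 than in K11 (1.15%) and 423 were lower (1.84%), together 2.98%. With 1 probe set a gene, 160 of 10021 genes were higher (1.60%) and 246 lower (2.45%), together 4.05%. The falls were the larger changes. The median size was 1.22 on the log2 scale among probe sets that were higher and 1.54 among those that were lower, and 54 and 138 changed by 2 or more. All 687 had arrays that did not overlap between the lines, and so did 45.7% of all tested probe sets, so this separates them little. The median difference over all tested probe sets was 0.03. Wild type was not at one end of these differences. Among the 423 lower in K11-5 the wild type mean lay between the lines and nearer K11 in 177, between them and nearer K11-5 in 129, above both in 57 and below both in 60. Among the 264 higher it lay nearer K11 in 79, nearer K11-5 in 95, above both in 49 and below both in 41; picking large differences favours a place in between.

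These counts depended on single arrays. Without K11-5 replicate 2 they were 9 higher and 71 lower, and without K11-5 replicate 1 they were 112 and 324. Without K11 replicate 2 they were 575 and 516, and without K11 replicate 1 they were 222 and 227. Leaving out wild type replicate 1 or 2, which lends only its spread to the fit, gave 86 and 218 or 82 and 207. With no intensity trend in the variance 0 passed in limma, with 3363 at unadjusted p below 0.05, against 4112 with the trend. Centring the arrays on their medians in place of quantile normalization moved the median of all tested probe sets to 0.16 and turned the split round, with 944 higher (74.2% of those that passed, against 38.4%) and 328 lower.

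**Figure D1:**
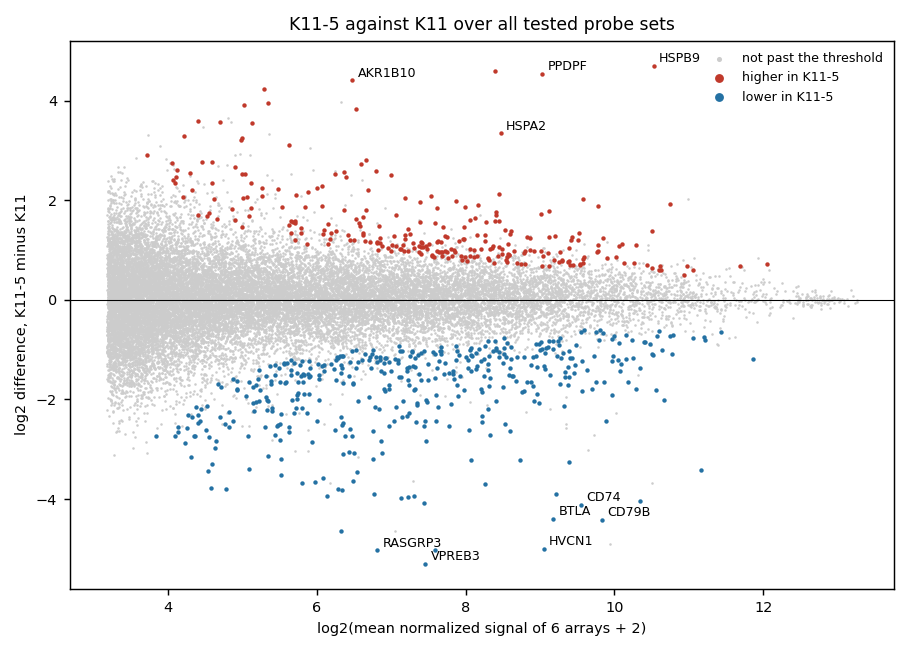
Each point is 1 tested probe set, with log2(mean normalized signal of the 6 arrays + 2) on the x axis and the log2 difference, K11-5 minus K11, on the y axis; the 264 that were higher in K11-5 are red and the 423 that were lower are blue. The red points reach 4.71 and the blue points -5.30, and the bright probe sets at the right lie close to 0.

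Genes of the B cell receptor pathway were among those that fell. This and the other gene lists were chosen with earlier results of these data known, so their shares are no independent test. Counts at unadjusted p below 0.05 in this and later lists are to be set against 2171 of all 10021 genes. Of 48 tested genes of B cell receptor signalling, 13 fell in K11-5 and 0 rose in limma, against 2.45% of all genes that fell, with 22 at unadjusted p below 0.05, and the median log2 difference was -0.58, against 0.03 over all genes tested. Lists of myeloid and erythroid markers, mostly dim genes, had medians of -0.91 and -0.67, with 10 and 8 genes tested. Among the receptor chains and coreceptors 3 of 6 fell. CD79B, a signalling chain of the receptor, had signals of 163.6 and 21.9 in K11-5, 1327 and 1353 in K11, and 1051 and 1527 in wild type. Both K11-5 arrays lay far below all other arrays, replicate 2 the lower, and CD79B fell by 4.42 ± 0.65 on the log2 scale (limma's adjusted p = 0.00972). BTLA, an inhibitory receptor of lymphocytes, had 16.5 and 9.29 in K11-5, 237 and 385 in K11, and 967 and 1839 in wild type. The 3 groups did not overlap, K11-5 was near background, and BTLA fell by 4.40 ± 0.36 against K11 (adjusted p = 0.000542). CD72, an inhibitory coreceptor of B cells, had 9.80 and 1.05 in K11-5, 74.4 and 114 in K11, and 192 and 433 in wild type. It was at least 7.04-fold lower in K11-5 than in K11 (adjusted p = 0.00962). The other tested probe set of CD72 had a log2 difference of -1.12 and did not pass. CD81, a coreceptor partner found on many cells, had 61.0 and 83.5 in K11-5 against 67.1 and 64.8 in K11, and did not pass (log2 difference 0.11 ± 0.30).

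Among the kinases and adaptors of this list 6 of 18 fell. BTK, the kinase that activates phospholipase C gamma, had 226 and 150.4 in K11-5, 573 and 666 in K11, and 547 and 707 in wild type, and fell by 1.73 ± 0.22 (limma's adjusted p = 0.00552). The K11-5 arrays were thus the low ones and K11 was near wild type. The other 5, chosen after their values were seen, were SYK, the first kinase bound by the receptor, PIK3AP1, an adaptor for phosphoinositide 3-kinase, DAPP1, an adaptor that binds its lipid product, PTPRC, the CD45 phosphatase, and PTPN6, the phosphatase SHP-1. Their log2 differences ran from -1.29 for PTPN6 to -2.61 for DAPP1. LYN, the Src family kinase that phosphorylates the CD79 chains, had 624 and 658.5 in K11-5 against 877 and 979 in K11 and did not pass (log2 difference -0.53 ± 0.16, adjusted p = 0.113).

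Among second messenger and downstream genes 4 of 24 fell. RASGRP3, which activates Ras below the receptor, had 14.98 and 6.30 in K11-5, 332 and 444 in K11, and 114.5 and 233.5 in wild type, with no overlap between the 3 groups. It was at least 28.9-fold lower in K11-5 than in K11 (limma's adjusted p = 0.000542). The other 3, chosen after their values were seen, were PLCG2, the phospholipase of the pathway, and PIK3CD and PIK3R1, the catalytic and regulatory subunits of phosphoinositide 3-kinase. PLCG2 had 282 and 143 in K11-5, 932 and 563 in K11, and 345.5 and 323 in wild type. Here K11 was the bright group and K11-5 lay below wild type. The number of the 48 that fell was 4 without K11-5 replicate 2, 10 without K11-5 replicate 1, 9 and 11 without K11 replicates 1 and 2, and 0 in limma without the intensity trend, where 18 had an unadjusted p below 0.05. Over the 13 that fell, the median difference from the K11 mean was -1.70 in K11-5 replicate 1 and -2.33 in replicate 2. In bulk RNA, fewer cells with a transcript and less of it per cell cannot be told apart.

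**Figure D2:**
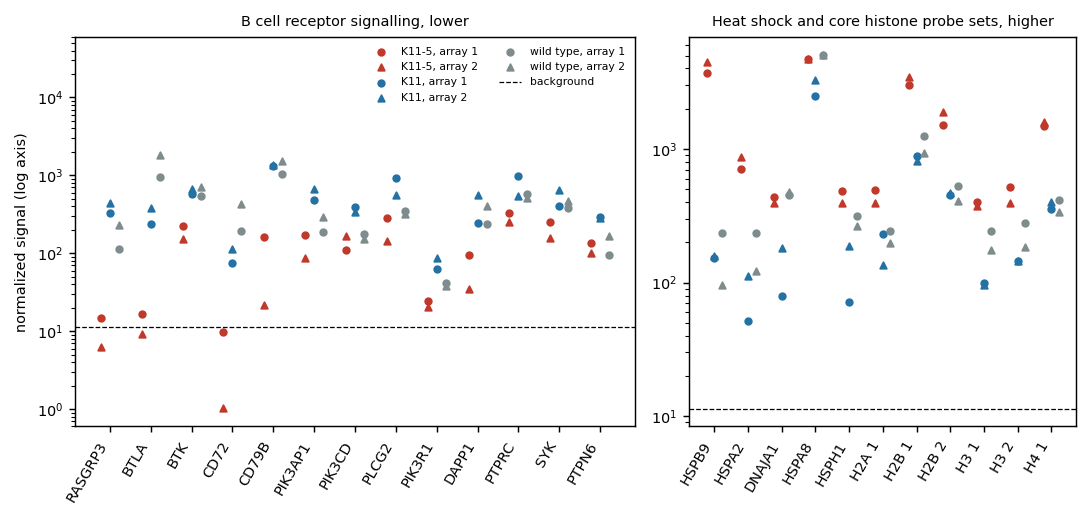
Normalized signal on a log axis in each of the 6 arrays, K11-5 in red, K11 in blue and wild type in grey, circles for replicate 1 and triangles for replicate 2, with background as a dashed line. The left panel has the 13 genes of B cell receptor signalling that fell in K11-5, and the right panel the 5 heat shock genes and 6 core histone probe sets (numbered within a family) that rose, each with both K11-5 arrays on one side of both K11 arrays.

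Of 29 tested immunoglobulin and antigen presentation genes 7 fell and 0 rose in limma, against 2.45% of all genes that fell. The list's median was -0.44, 14 had an unadjusted p below 0.05, and 11 of the 29 differences were above 0. VPREB3, which binds immunoglobulin chains inside pre-B and B cells, had 0.707 and 0.639 in K11-5, 88.0 and 121 in K11, and 254 and 576 in wild type. It was not above background in K11-5, and the groups did not overlap. Its level was at least 7.86-fold lower in K11-5 than in K11 (adjusted p = 0.000506), with a fitted log2 difference of -5.30 ± 0.38. UNG, the glycosylase that removes uracil left in DNA by the deaminase of immunoglobulin diversification, had 316 and 384 in K11-5, 1336 and 1163 in K11, and 563 and 765 in wild type, and fell by 1.83 ± 0.19 (adjusted p = 0.00193). IGLL1, the name given in the annotation to a light chain gene, had 3809 and 2350 in K11-5 against 4720 and 5409 in K11, and did not pass (log2 difference -0.76 ± 0.20, adjusted p = 0.0705). JCHAIN, which joins secreted immunoglobulin, had 1810 and 170.4 in K11-5 against 2004 and 1251 in K11, so that one K11-5 array lay among the K11 arrays and the other far below them; it did not pass either. Both genes were chosen after their values were seen.

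The MHC class II side of that list held 4 of the 7. CD74, the invariant chain, had 936.5 and 248 at its brightest probe set in K11-5, 5335 and 5009 in K11, and 1022 and 1241 in wild type. K11 was the group that stood apart here, above both others, and replicate 2 of K11-5 was the lowest array. CD74 fell by 3.42 ± 0.44 (limma's adjusted p = 0.00562), and its 2 other tested probe sets had -4.11 and -4.05. BLB1, a beta chain of MHC class II with close relatives that the same probe set may detect, had 5.51 and 3.84 in K11-5, 25.5 and 48.6 in K11, and 96.7 and 80.7 in wild type, and was at least 2.79-fold lower in K11-5 than in K11 (adjusted p = 0.0116). CIITA, the transcriptional coactivator of MHC class II genes, had 1.67 and 3.71 in K11-5, 31.6 and 70.6 in K11, and 7.34 and 12.6 in wild type, at least 3.69-fold lower in K11-5 than in K11 (adjusted p = 0.0159). DMA, a class II peptide loading chain, had 30.9 and 27.5 in K11-5, 86.0 and 105 in K11, and 30.9 and 30.0 in wild type. For DMA the K11-5 arrays were thus at the wild type level and K11 was above it. CIITA, DMA and CD83, a surface protein of activated B cells that fell by 1.87 ± 0.41, were chosen after their values were seen. The number of the 29 that fell was 3 without K11-5 replicate 2, 9 without K11-5 replicate 1 and 6 without either K11 array.

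Of 25 tested B cell transcription factors 4 fell and 0 rose in limma, against 2.45% of all genes that fell. The list's median was -0.45, 10 had an unadjusted p below 0.05, and 8 of the 25 differences were above 0. EBF1, which sets up B cell identity, had 44.1 and 17.2 in K11-5, 122 and 203.5 in K11, and 184 and 207 in wild type, and fell by 2.43 ± 0.39 (limma's adjusted p = 0.0139). FOXO1, needed for B cell development, had 108 and 24.9 in K11-5, 329.5 and 294 in K11, and 120.2 and 156 in wild type, and fell by 2.52 ± 0.50 (adjusted p = 0.0303). The K11-5 arrays were the lowest of the 6 for both genes. FLI1, an ETS factor, had 299.8 and 142 in K11-5 against 472 and 949 in K11, and fell by 1.69 ± 0.37 (adjusted p = 0.0407). ID3, an inhibitor of E proteins, had 1.16 and 5.90 in K11-5, 36.1 and 50.1 in K11, and 8.56 and 4.73 in wild type. It was at least 3.33-fold lower in K11-5 than in K11 (adjusted p = 0.0290). Wild type was below background for ID3 as K11-5 was, and K11 stood apart. These calls rested on single arrays, with 0 in limma without K11-5 replicate 2, where 8 had an unadjusted p below 0.05. The number was 1 without K11 replicate 2 and 1 or 2 without wild type replicate 1 or 2.

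Other B cell factors, chosen after their values were seen, did not pass. POU2AF1, the B cell coactivator of octamer promoters, had 425 and 2.02 in K11-5, 899 and 1724 in K11, and 1269 and 1543 in wild type (log2 difference -4.91 ± 1.52, adjusted p = 0.122). IRF4 had 264 and 13.4 in K11-5, 354 and 365 in K11, and 1435 and 1454 in wild type (log2 difference -2.50 ± 0.93, adjusted p = 0.192). For both genes replicate 2 of K11-5 was far below replicate 1. SPI1, the factor PU.1 of myeloid and B cells, had 447 and 551 in K11-5 against 364 and 679 in K11, with overlapping arrays. PAX5, the factor that defines the B lineage, was near background in every group, with 11.4 and 29.1 in K11-5, 30.0 and 10.8 in K11, and 7.72 and 3.76 in wild type, so its probe set does not check the cell type. Of the other B cell genes CD79B was bright in K11 and wild type, and IGLL1 in all groups.

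The 15 largest falls held 6 genes of the lists above, VPREB3, RASGRP3, CD79B, BTLA, CD72 and CD74. HVCN1, the voltage-gated proton channel of B cells, had 81.5 and 7.75 in K11-5, 719 and 1160 in K11, and 437 and 754 in wild type, and fell by 5.00 ± 0.75 (limma's adjusted p = 0.0103). WDFY4, a BEACH domain protein of antigen presenting cells, had 58.0 and 4.85 in K11-5, 362 and 323 in K11, and 119 and 158 in wild type, and fell by 4.09 ± 0.74 (adjusted p = 0.0205). Both genes were dimmest in replicate 2 of K11-5. By group means ATP2A3, the calcium pump SERCA3, was at least 9.52-fold lower (adjusted p = 0.0382). It had 24.4 and 0.623 in K11-5 against 83.1 and 188.5 in K11, so replicate 1 of K11-5 stood above background. Its other tested probe set had a log2 difference of -0.66 and did not pass. NALCN, a sodium leak channel, was at least 9.12-fold lower by group means (adjusted p = 0.0204). Both its K11-5 arrays lay below background, but its K11 arrays were far apart, at 43.8 and 322. Its other tested probe set had -2.82 and passed. ARHGAP24, a GTPase activating protein, was at least 3.56-fold lower (adjusted p = 0.00455).

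Some of the largest falls were genes that stood above wild type in K11. FAM107B had 82.8 and 30.4 in K11-5, 681 and 677 in K11, and 159 and 195 in wild type, and fell by 3.70 ± 0.37 (limma's adjusted p = 0.0016). WDR66, a protein of motile cilia in mammals, had 119.8 and 53.9 in K11-5, 1257 and 1193 in K11, and 361.5 and 563 in wild type, and fell by 3.89 ± 0.33 (adjusted p = 0.000565). DOK7, an adaptor of the neuromuscular junction, had 14.9 and 8.24 in K11-5, 122 and 275.5 in K11, and 19.6 and 31.0 in wild type, at least 13.9-fold lower in K11-5 than in K11 (adjusted p = 0.00325). In these genes K11 was the brightest group and K11-5 the dimmest. BGN, the matrix proteoglycan biglycan, was at least 4.81-fold lower (adjusted p = 0.00714).

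Among the 15 largest rises HSPB9, a small heat shock protein, came first. It had 3711 and 4491 in K11-5, 152 and 157 in K11, and 236.5 and 95.8 in wild type, a rise of 4.71 ± 0.33 on the log2 scale or 26.1-fold (limma's adjusted p = 0.000506). Its other tested probe set also passed. PPDPF, named for a factor of pancreatic progenitors, had 395 and 2597 in K11-5, 53.2 and 32.7 in K11, and 30.0 and 17.4 in wild type, and rose by 4.54 ± 0.68 (adjusted p = 0.0103). The 2 K11-5 arrays of PPDPF differed several-fold, both above all others. AKR1B10, an aldo-keto reductase of carbonyl detoxification, had 68.5 and 439 in K11-5, 9.57 and 3.96 in K11, and 0.880 and 0.423 in wild type, at least 13.2-fold higher in K11-5 than in K11 (adjusted p = 0.0176). CAPN3, a calpain protease, had 86.4 and 395 in K11-5, 23.8 and 29.1 in K11, and 15.1 and 14.3 in wild type, and rose by 2.73 ± 0.55 (adjusted p = 0.0325). PHLDA2, a pleckstrin homology protein imprinted in mammals, rose by 2.81 ± 0.57 (adjusted p = 0.0318).

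For most other large rises the K11 mean lay below background. NFIB and NFIX, nuclear factor I transcription factors, were at least 7.89-fold and at least 3.67-fold higher in K11-5 (limma's adjusted p = 0.0381 and 0.0461). VCL, the focal adhesion protein vinculin, was at least 5.24-fold higher (adjusted p = 0.0296). SULT1B, a sulfotransferase, was at least 3.89-fold higher and CHIR-B6, a chicken immunoglobulin-like receptor, at least 6.47-fold higher. K123 and HSBP1L1, named for its likeness to a heat shock factor binding protein, were at least 6.27-fold and 7.31-fold higher. Of the 2 other HSBP1L1 probe sets one had 2.08 and the other -0.67, so its probe sets disagree. TRMT2B, a transfer RNA methyltransferase, was at least 1.81-fold higher. C19orf25, named as an open reading frame, had 38.8 and 22.3 in K11-5, 1.74 and 3.78 in K11, and 36.4 and 17.0 in wild type, at least 2.35-fold higher in K11-5 than in K11 (adjusted p = 0.0267). Unlike the others, these genes had wild type signals near those of K11-5, for TRMT2B 26.1 and 11.2. Of the 30 genes, 17 had other tested probe sets, 25 in all, of which 24 had the same direction and 14 also passed. All 30 kept their sign in each alternative that was run, but fewer of them passed when an array was left out. Their choice required lines that did not overlap, so leaving out an array could not turn a sign. The kept signs are thus no test of these genes.

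**Figure D3:**
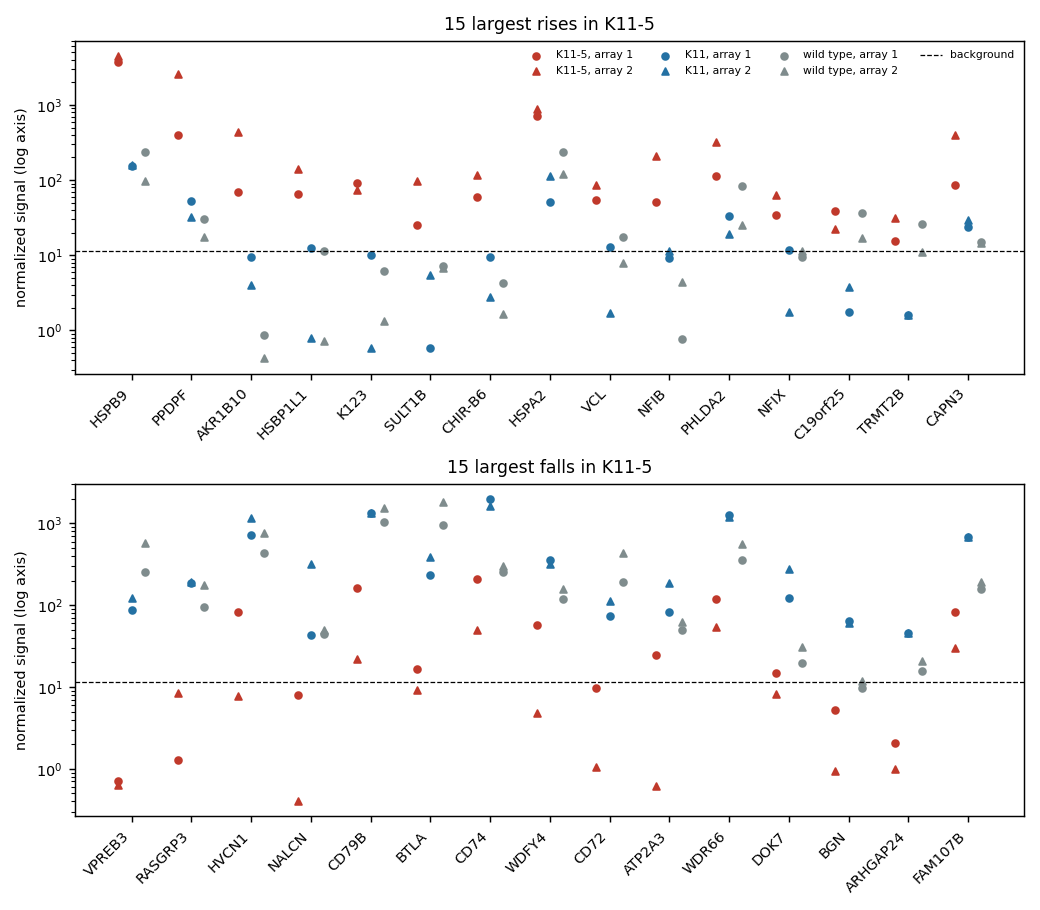
Normalized signal on a log axis in each array for the 15 largest rises (upper panel) and the 15 largest falls (lower panel) in K11-5, with K11-5 in red, K11 in blue and wild type in grey, circles for replicate 1, triangles for replicate 2, and background as a dashed line. HSPB9 and HSPA2 were bright in both K11-5 arrays, while most other rises came from K11 signals at or below the line.

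Of 39 tested heat shock proteins, chaperones that hold or refold unfolded proteins, 5 rose in K11-5 and 0 fell in limma, against 1.60% of all genes that rose. The list's median was 0.38, 17 had an unadjusted p below 0.05, and 8 of the 39 differences were below 0. HSPA2, a member of the HSP70 family, had 713.5 and 877 in K11-5, 51.6 and 112 in K11, and 237 and 122 in wild type. It rose by 3.34 ± 0.37 (adjusted p = 0.00313). For HSPB9 and HSPA2 both K11-5 arrays lay above all other arrays, wild type included. HSPA8, the constitutive HSP70, had 4720 in both K11-5 arrays, 2499 and 3255 in K11, and 5074 and 5085 in wild type, and rose by 0.73 ± 0.13 (adjusted p = 0.0190). DNAJA1, a J protein that works with HSP70, had 439 and 393 in K11-5, 79.4 and 181 in K11, and 452 and 473 in wild type, and rose by 1.78 ± 0.31 (adjusted p = 0.0185). HSPH1, the HSP110 nucleotide exchange factor, chosen after its value was seen, had 485 and 391 in K11-5, 71.1 and 186 in K11, and 312.5 and 263 in wild type (1.90 ± 0.36, adjusted p = 0.0258). For HSPA8, DNAJA1 and HSPH1 the dim group was K11, replicate 1 the dimmer array.

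HSP90AA1, the inducible HSP90, chosen after its value was seen, had 4467 and 4367 in K11-5, 1626 and 3740 in K11, and 4519 and 4720 in wild type, and did not pass (0.84 ± 0.28, limma's adjusted p = 0.155). The number of heat shock genes that rose was 10 without K11 replicate 2 and 5 without K11 replicate 1, with medians of 0.40 and 0.24. It was 1 and 2 without K11-5 replicates 2 and 1, 3 without wild type replicate 2, and 12 with the arrays centred on their medians, where the list's median was 0.60. The K11 arrays also had the highest actin 3' to 5' ratios, 9.23 and 9.31, against 6.29 and 5.28 in K11-5 and 8.10 and 7.15 in wild type. The GAPDH ratios of the lines overlapped, and the part of RNA integrity in these rises was not tested.

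Most core histone probe sets match several near-identical genes and are taken by family here. Of 9 tested 6 rose in K11-5 and 0 fell in limma, against 1.15% of all probe sets that rose, with 7 at unadjusted p below 0.05 and a median of 1.88. An H4 probe set had 1477 and 1597 in K11-5, 357 and 399 in K11, and 417 and 338 in wild type, and rose by 2.02 ± 0.17 (adjusted p = 0.000542). The brighter of the 2 H2B probe sets that rose had 2986 and 3462 in K11-5, 884 and 812 in K11, and 1245 and 936 in wild type, and rose by 1.92 ± 0.16 (adjusted p = 0.000557). At these 2 probe sets K11-5 was the group that stood apart, and K11 lay near wild type. HIST1H2B5L, an H2B gene with 2 dim probe sets of its own, did not pass (limma's adjusted p = 0.453 and 0.182). At the first, wild type had 4.31 and 24.0, on either side of K11-5 at 15.5 and 17.6. The brighter of the 2 H3 probe sets had 521 and 394 in K11-5, 144 in both K11 arrays, and 280.0 and 183 in wild type, so here wild type lay between the lines (1.64 ± 0.24, adjusted p = 0.00962). An H2A probe set had 490 and 394 in K11-5, 231 and 136 in K11, and 245 and 198 in wild type (1.30 ± 0.26, adjusted p = 0.0312). Within H2B and within H3 the 2 probe sets that rose match the same genes, so the 6 rises overlap. A second H4 probe set, matching the same 5 genes, was below background in both lines, at 6.601 and 3.99 in K11-5 and 3.35 and 9.74 in K11, against 61.4 and 43.7 in wild type. The number that rose was 4 without either K11-5 array and 0 in limma without that trend in the variance, where 6 had an unadjusted p below 0.05.

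Of 28 transcription, processing and chaperone genes of histone supply 6 had an unadjusted p below 0.05, against 2171 of all 10021 genes. The list's median was -0.03. In limma 0 rose and 1 fell, against 2.45% of all genes that fell. The one was SLBP, which binds the stem-loop at the end of histone transcripts, with 303.5 and 226 in K11-5, 506 and 522 in K11, and 288 and 342 in wild type (-0.97 ± 0.20, adjusted p = 0.0325). NPM3, a nucleoplasmin family protein outside that list and chosen after its values were seen, had 1004 and 935 in K11-5, 370.4 and 432.5 in K11, and 668 and 723 in wild type at one probe set, and rose there by 1.27 ± 0.15 (adjusted p = 0.00445). Its other probe set that passed had 0.59. H3F3C, annotated as a replacement H3, also fell, with 969 and 764 in K11-5 against 1570 and 1424 in K11 (-0.80 ± 0.15, adjusted p = 0.0267). That probe set carries H3F3C alone, but both H3 probe sets that rose are annotated to H3F3C among their 4 genes, so probe sets with this name go both ways. H2AFZ, the variant H2A.Z, had 4934 and 4607 in K11-5 against 3287 and 4158 in K11 and did not pass (0.37 ± 0.13, adjusted p = 0.160). SLBP did not pass with the arrays centred on their medians, with the arrays of the lines alone, without the intensity trend, or without any 1 array other than K11-5 replicate 1. H3F3C did not pass under either other scaling, with no filter, with the arrays of the lines alone, without the trend, or without any 1 array other than K11-5 replicate 1 and K11 replicate 2.

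Few chromatin genes passed, and over all genes tested 2.45% fell and 1.60% rose. Of all 10021 genes 2171 had an unadjusted p below 0.05. Of 36 architectural proteins 2 fell and 0 rose in limma, with 13 at unadjusted p below 0.05 and a median of -0.20. LBR, the lamin B receptor that holds heterochromatin at the nuclear envelope, had 722 and 736 in K11-5, 1355 and 1308 in K11, and 1031 and 1231 in wild type, and fell by 0.87 ± 0.14 (adjusted p = 0.0145). RAD21, the kleisin of cohesin, had 1101 and 1024 in K11-5, 1898 and 1607 in K11, and 1677 and 1780 in wild type, and fell by 0.72 ± 0.13 (adjusted p = 0.0242). Both K11-5 arrays lay below all others for both genes. Of 36 chromatin modifying enzymes DOT1L, the methyltransferase of H3 lysine 79, fell by 1.28 ± 0.28 (adjusted p = 0.0407), 0 rose in limma, and 6 had an unadjusted p below 0.05. With the arrays centred on their medians 3 architectural proteins rose and 0 fell, and the median of that list was 0.07, so its direction depends on the scaling. Without K11-5 replicate 2 neither list had a member past limma's threshold, with 9 and 3 at unadjusted p below 0.05.

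DNA replication genes held 3 falls among 44 tested, against 2.45% of all genes that fell, with 0 rises in limma, 13 at unadjusted p below 0.05 and a median of -0.23. CCNE2, a cyclin of S phase entry, had 232 and 179 in K11-5, 755 and 555 in K11, and 462 and 525 in wild type, and fell by 1.66 ± 0.21 (adjusted p = 0.00471). RFC5, a subunit of the clamp loader, had 314 and 218 in K11-5, 600.3 and 707 in K11, and 449 and 525.5 in wild type, and fell by 1.31 ± 0.21 (adjusted p = 0.0127). E2F1, a transcription factor of S phase genes, fell by 0.86 ± 0.18 (adjusted p = 0.0381). K11-5 was the dim group in all 3, and none passed in limma without K11-5 replicate 2, where 8 of the 44 had an unadjusted p below 0.05. RRM2, the small subunit of ribonucleotide reductase, had 1984 and 2221 in K11-5 against 1533 and 1431 in K11, the opposite direction, and did not pass (0.50 ± 0.13, adjusted p = 0.0653). With the arrays centred on their medians 2 replication genes rose and 2 fell, with a median of 0.01. Of 45 repair and checkpoint genes RAD54L, of homologous recombination, fell by 1.20 ± 0.23 and PMS2, of mismatch repair, fell by 0.82 ± 0.17 (adjusted p = 0.0261 and 0.0383), 10 had an unadjusted p below 0.05, and neither passed without either K11-5 array. For the repair list too the share of all genes that fell was 2.45%. Over all 10021 genes 2171 had an unadjusted p below 0.05, a share close to that of the repair list. Of 40 mitosis genes 0 passed in limma, with 5 at unadjusted p below 0.05 and a median of -0.14.

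A caspase inhibitor was in the medium of every group, so the apoptosis genes are read in its presence. Of 26 genes in the list of caspases, the apoptosome and the death receptor path 2 fell and 0 rose in limma. Of the 26, 9 had an unadjusted p below 0.05, and the median was 0.01. Both falls were among the 10 genes listed under the death receptor path. Of the 16 caspase and apoptosome genes 0 passed in limma, with 5 at unadjusted p below 0.05. Over all genes tested 2.45% fell and 1.60% rose. PDCD4, an inhibitor of translation named for its rise in dying cells, had 686 and 670 in K11-5, 2459 and 2326 in K11, and 1283 and 1604 in wild type. The groups were far apart and the replicates close, and PDCD4 fell by 1.82 ± 0.14 (adjusted p = 0.000542). TRAF3, an adaptor of TNF receptors that limits B cell survival signals, had 33.7 and 22.2 in K11-5 against 89.0 and 91.3 in K11, and fell by 1.65 ± 0.29 (adjusted p = 0.0182). CASP8, an initiator caspase, had 324 and 372 in K11-5, 209 and 229 in K11, and 126.5 and 92.8 in wild type, and did not pass (0.66 ± 0.22, adjusted p = 0.140). Of 14 members of the BCL2 family BOK, which promotes apoptosis, fell by 1.92 ± 0.31 (adjusted p = 0.0148), 0 of the 14 rose in limma and 5 had an unadjusted p below 0.05. BCL2L10, a relative of BCL2 that is not in that list and was chosen after its values were seen, rose at both of its probe sets that passed, by 0.95 ± 0.17 and 1.31 ± 0.25 (adjusted p = 0.0182 and 0.0242), with 877 and 1098 in K11-5, 559 and 458 in K11, and 1122 and 1079 in wild type at the brighter. MCL1, an inhibitor of apoptosis, fell by 1.41 ± 0.28 at one probe set (adjusted p = 0.0314), while its brightest, used in the list, did not pass (-0.93 ± 0.30, adjusted p = 0.134). BCL2 itself had 29.2 and 86.5 in K11-5 against 31.6 and 12.0 in K11, with overlapping arrays. Without K11-5 replicate 2 1 of the 26 fell, and in the BCL2 family 0 passed in limma, with 2 at unadjusted p below 0.05.

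Stress and signalling genes split, and over all genes tested 1.60% rose and 2.45% fell. Of 17 p53 targets GADD45A, a growth arrest protein, rose by 1.10 ± 0.25, with 1968 and 2053 in K11-5, 1262 and 699 in K11, and 878 and 619 in wild type, and TP53INP1, a p53-induced nuclear protein, fell by 1.62 ± 0.29 (limma's adjusted p = 0.0494 and 0.0208). Of 27 NF-kB and immediate early genes JUN, an AP-1 subunit, had 535 and 652 in K11-5, 217 and 180 in K11, and 164 and 89.1 in wild type, and rose by 1.57 ± 0.28 (adjusted p = 0.0182). JUN was thus above both other groups in K11-5. NFKB1, the p105 subunit, had 148 and 158 in K11-5, 319 and 308 in K11, and 129 in both wild type arrays, and fell by 1.03 ± 0.19 (adjusted p = 0.0228). For NFKB1 K11 stood above both others. Of 41 genes of amino acid and unfolded protein stress 2 fell and 0 rose in limma, with 17 at unadjusted p below 0.05. They were PSPH, the last enzyme of serine synthesis, which fell by 1.09 ± 0.22, and CARS, the cysteinyl-tRNA synthetase, which fell by 0.82 ± 0.17 (adjusted p = 0.0298 and 0.0353). With the arrays centred on their medians 4 genes of that list rose and 0 fell. Without K11-5 replicate 2 none of the members of these 3 lists passed in limma, with 6 p53 targets, 4 NF-kB and immediate early genes and 8 stress genes at unadjusted p below 0.05.

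Few metabolic and growth genes passed, and over all genes tested 1.60% rose and 2.45% fell. These counts depended on the scaling. With the arrays centred on their medians 4 cholesterol synthesis, 4 glycolysis, 6 oxidative phosphorylation and 5 MYC network and growth genes rose. In that setting 1 oxidative phosphorylation gene fell, and 944 of all tested probe sets were higher. Of 23 cholesterol synthesis genes 0 passed in limma, with 6 at unadjusted p below 0.05 and a median of 0.35. INSIG1, a sterol sensor, had 1091 and 1367 in K11-5 against 431 and 870 in K11, and did not pass (0.99 ± 0.27, adjusted p = 0.0846). This list turned on single K11 arrays, with 8 higher and 1 lower without K11 replicate 2, and a median of 0.02 without K11 replicate 1. Of 19 glycolysis genes 0 passed in limma, with 8 at unadjusted p below 0.05 and a median of 0.29, and 3 rose without K11 replicate 2. Of 55 oxidative phosphorylation genes COX17, a copper chaperone, rose by 1.02 ± 0.23, and COX5A, a subunit of the same oxidase, fell by 1.09 ± 0.23 (adjusted p = 0.0475 and 0.0370). The list's median was 0.12, and 7 rose and 0 fell without K11 replicate 2. SRM, spermidine synthase, was the member that rose among 26 MYC network and growth genes, by 0.83 ± 0.16 (adjusted p = 0.0290). COX17, COX5A and SRM did not pass without K11-5 replicate 2. Of 61 ribosomal protein genes 0 passed in limma, with 2 at unadjusted p below 0.05 and a median of -0.02, and of 11 interferon response genes 0 passed, with 3 at unadjusted p below 0.05.

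**Figure D4:**
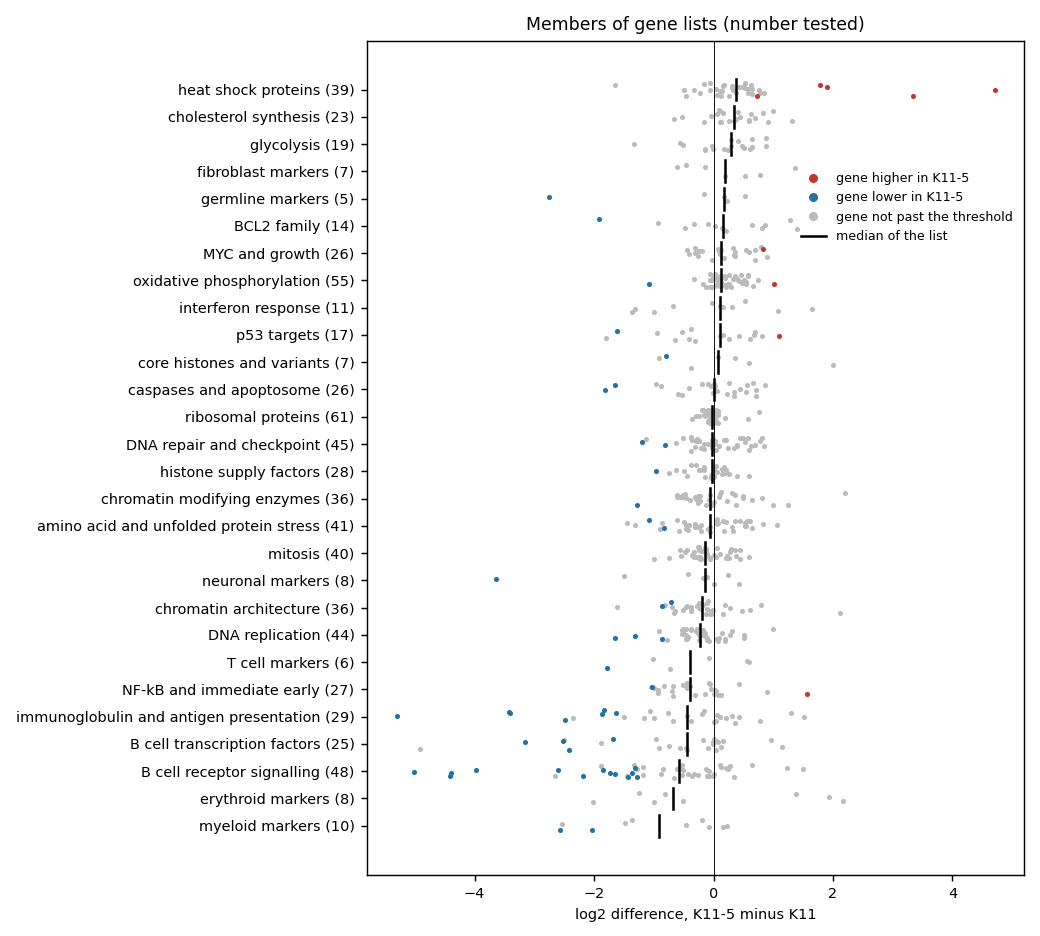
Each point is 1 tested gene of a list, with the log2 difference, K11-5 minus K11, on the x axis and the lists down the y axis, ordered by their medians (black bars); red and blue points passed limma's threshold. The B cell receptor, immunoglobulin and B cell factor lists extend left to about -5, with medians from -0.58 to -0.44, and the heat shock list has its 5 red points on the right. The myeloid and erythroid lists have lower medians, -0.91 and -0.67.

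Markers of other cell types were mostly dim in both lines. The shares over all genes tested were 2.45% lower and 1.60% higher. Of 10 tested myeloid markers 2 fell and 0 rose in limma, with 4 at unadjusted p below 0.05, and the summed signal of the list was 759 and 833 in K11-5, 2093 and 1385 in K11, and 336 and 317 in wild type. NCF4, a subunit of the phagocyte oxidase also present in B cells, had 166 and 183 in K11-5, 881 and 589 in K11, and 82.7 and 117 in wild type, and fell by 2.03 ± 0.25 (adjusted p = 0.00445). TLR2A, a Toll-like receptor, had 23.7 and 11.04 in K11-5, 103 and 110 in K11, and 20.6 and 17.1 in wild type, and fell by 2.56 ± 0.37 (adjusted p = 0.00923). CEBPB, chosen after its values were seen, had 453 and 555 in K11-5, 955 and 494 in K11, and 179 and 83.7 in wild type. It made up most of the summed myeloid signal in K11-5 and did not pass (log2 difference -0.45 ± 0.36). Among the other myeloid markers MRC1 lay at or below background in both lines. CSF1R, the receptor of macrophage growth factor, had 38.7 and 27.1 in K11-5 against 28.0 and 49.9 in K11. Of 6 tested T cell markers CD3D, a chain of the T cell receptor complex, had 213 and 398 in K11-5, 1169 and 865 in K11, and 1152 and 1173 in wild type, and fell by 1.78 ± 0.26 (adjusted p = 0.00962). The summed T cell signal was 319 and 512 in K11-5, 1299 and 1010 in K11, and 1239 and 1317 in wild type, most of it CD3D, while CD8BP and IL7R were near background and CD8A lay between 11.4 and 29.7 in both lines. Of 8 neuronal markers GPM6A, a membrane glycoprotein of neurons, had 30.4 and 7.83 in K11-5, 154 and 316 in K11, and 3.75 and 14.3 in wild type, and fell by 3.64 ± 0.63 (adjusted p = 0.0176). The summed neuronal signal was 2867 and 2853 in K11-5, 3812 and 4270 in K11, and 1647 and 1686 in wild type, most of it STMN2, a tubulin-binding protein that did not pass. Of 5 germline markers SPO11, the nuclease of meiotic breaks, was at least 3.54-fold lower in K11-5 (adjusted p = 0.0259), and the summed signal of that list was 82.1 and 91.7 in K11-5 against 112 and 120.0 in K11. Of 8 erythroid and 7 fibroblast markers 0 passed in limma, with 3 and 0 at unadjusted p below 0.05, and the summed signals were 68.9 to 87.4 and 106 to 139 in K11-5 against 82.0 to 96.2 and 76.0 to 121 in K11. Median log2 differences were -0.91 for myeloid, -0.67 for erythroid, -0.40 for T cell and -0.15 for neuronal markers. For germline and fibroblast markers they were 0.17 and 0.19, and for B cell receptor signalling -0.58. Negative medians were thus not particular to the B cell lists. The part of other cell types in the B cell results was not tested.

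The calls were also counted by chromosome. With genes placed by RefSeq assembly GRCg7b, 13 of 143 tested genes of chromosome 27 were higher in K11-5 (9.09%) and 4 were lower (2.80%), against 1.60% higher and 2.45% lower over all genes. On the other chromosomes with at least 50 tested genes the share that was higher ran from 0 to 2.92%. The median over chromosome 27 was 0.27, against 0.03 over all genes, and 0.36 against 0.20 with the arrays centred on their medians. Apart from HSPB9 the rises were about 2-fold or less, save IGFBP4, a binding protein of insulin-like growth factors, which was dim. PSMB3 and PSMC5, subunits of the proteasome, had 2456 and 2928 and 978 and 893 in K11-5, against 1604 and 1726 and 562 and 585 in K11, and rose by 0.69 ± 0.13 and 0.70 ± 0.15 (limma's adjusted p = 0.0285 and 0.0383). KPNB1, the nuclear import receptor importin beta, had 2082 and 1652 in K11-5, 1035 and 1173 in K11, and 685 and 704 in wild type (0.75 ± 0.15, adjusted p = 0.0325). RAB5C, a GTPase of early endosomes, had 447.5 and 496 in K11-5, 246 and 218 in K11, and 357 and 371 in wild type (1.02 ± 0.17, adjusted p = 0.0162). CD79B, described above, also lies on chromosome 27 and was one of the 4 that fell. The chromosome and its genes were picked after their values were seen. The count of rises was 1 without K11-5 replicate 2, 2 without K11-5 replicate 1, 21 without K11 replicate 2 and 9 without K11 replicate 1. Omitting wild type replicate 1 left 2 and omitting wild type replicate 2 left 1. The count was 2 with the arrays of the lines alone, 31 with the arrays centred on their medians, and 0 in limma without the intensity trend, while the median stayed between 0.14 and 0.36 in the settings run.

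**Figure D5:**
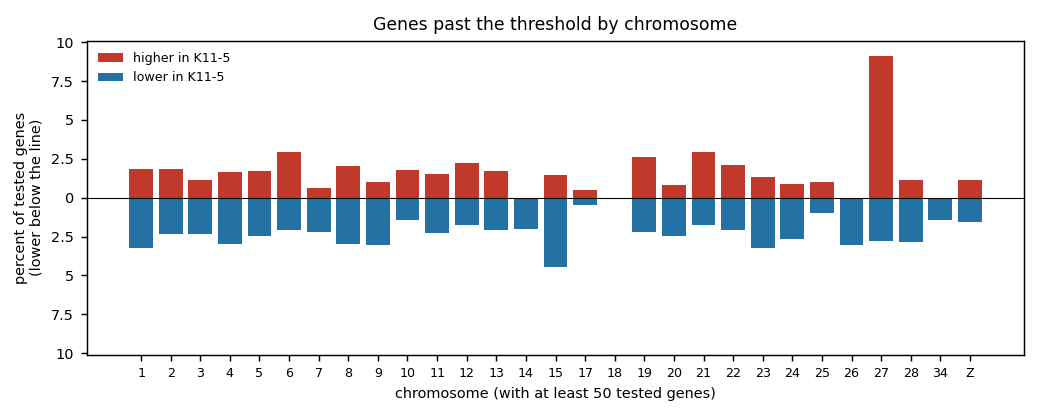
Percent of tested genes on each chromosome (GRCg7b, at least 50 tested genes) that were higher in K11-5 (red, above the line) and lower in K11-5 (blue, below the line) than in K11. Chromosome 27 has 9.09% higher, against 2.92% on the next highest.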

How the data were processed

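Total RNA of 2 K11-5, 2 K11 and 2 wild type samples was measured on Affymetrix chicken arrays. The deposited values are linear probe set intensities, made with GCOS per the submitters' processing notes; neither its version nor its algorithm or scaling is stated in the sources used here. The 96 AFFX and 57 RPTR probe sets were left out. Intensities were quantile-normalized over the 6 arrays, transformed as log2(value + 2), and the 23029 probe sets whose mean reached the 40th percentile, 7.05, were tested. A mean per group was fitted to all 6 arrays with limma 3.58.1 in R 4.3.3 (eBayes with an intensity trend, 3 residual and 7.15 prior degrees of freedom), with Benjamini-Hochberg adjustment over all probe sets tested and a threshold of 0.05. The fit was run on simulated data with independent normal noise drawn from its own fitted variances. That run does not test those variances. The background is the 95th percentile over 23 AFFX probe sets with tag or bacterial sequences, a choice made after the data were seen. Of the kept probe sets 27168 had 1 gene symbol, 177 several and 11037 none, and 26853 were matched to RefSeq assembly GRCg7b for current symbols and chromosomes. Lists use the brightest probe set of a gene, matched by symbol. Named genes were the linker histones, then the 15 largest rises and 15 largest falls among probe sets that passed with 1 gene symbol (no LOC, clone or KIAA name), non-overlapping lines and a brighter line at or above the median signal of 10.1, then up to 4 members of smallest p from each list. The members and lists were chosen with earlier results of these data known. Alternatives were trimmed-mean scaling, median centring, a pseudocount of 16, no filter, only the 4 arrays of the lines, no intensity trend, a replicate block, and leaving out each array. Fits with fewer arrays kept the normalization and filter of all 6.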

Additional observations from a re-analysis of the deposited data

Results flagged for a closer look

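RPTR reporter probe sets carry sequences that are not chicken genes and were kept out of the comparison. Of 57, 8 stood above background in the 2 arrays of at least 1 line and below it in wild type, judged after placing each array's deposited signals on the normalized scale. The probe set based on AF062997 had a mean deposited signal of 1.0 in K11-5 against 101.4 in K11, and was the one of the 8 seen in K11 alone. That based on NM_131175 had 13.3 in K11-5 against 1.25 in K11, and its normalized signals of 11.9 and 14.1 in K11-5 lay close to the background of 11.4. The other 6 were bright in both lines. The mean deposited signal was 2557 in K11-5 and 1888 in K11 for U57609, 1546 in K11-5 and 731 in K11 for L36849, 936.5 in K11-5 and 742.3 in K11 for AF403737, and 477.1 in K11-5 and 84.45 in K11 for AJ002682. It was 292.9 in K11-5 and 381 in K11 for NC_002086, and 168.7 in K11-5 and 106.6 in K11 for K01193. The sources used here do not say what these sequences are in the lines.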

How the results depend on the processing

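The main counts were 264 higher and 423 lower. They were 944 and 328 with median centring and 156 and 270 with no filter (of 38382 probe sets tested). With only the K11-5 and K11 arrays in the fit they were 92 and 216. Without the intensity trend they were 0 and 0 in limma (3363 at an unadjusted p under 0.05). Leaving out 1 array gave 9 to 575 higher and 71 to 516 lower. Trimmed-mean scaling, a pseudocount of 16 and the replicate block kept both counts within 1.5 times, at 255 and 450, 322 and 480, and 244 and 440. The replicate numbers do not pair the samples (correlation of replicate differences between K11-5 and K11, -0.0319), and the block left 29 of the 30 named genes past the threshold. Of those 30, 28 passed with trimmed-mean scaling, 30 with median centring, 29 with a pseudocount of 16, 19 with no filter, 24 with the lines' arrays alone, 0 in limma without the trend, and 14 to 25 with 1 array left out. Signal near background limits the dim genes, whose folds are bounds, and 37 of the higher and 63 of the lower probe sets had a dimmer line below background. The cause of these changes was not tested.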

Other observations

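Some genes outside the lists, chosen after their values were seen, also differed between the lines. LIPA, the lysosomal acid lipase, had signals of 471 and 863 in K11-5, 298 and 128 in K11, and 130 and 136 in wild type, and rose by 1.70 ± 0.37 on the log2 scale (limma's adjusted p = 0.0431). CTSB, a lysosomal cysteine protease, had 313 and 633 in K11-5, 120 and 176 in K11, and 222 and 119 in wild type, and rose by 1.61 ± 0.37 (adjusted p = 0.0487). For both the K11-5 arrays lay above all others. CTSC, another lysosomal protease, moved the other way, with 454 and 301.5 in K11-5, 777 and 899 in K11, and 560 and 739 in wild type, and fell by 1.17 ± 0.22 (adjusted p = 0.0242). ATP6V1A, a subunit of the lysosomal proton pump, did not pass at one probe set (0.56 ± 0.21, adjusted p = 0.205). Another of its probe sets passed, with 137 and 120 in K11-5 against 58.9 and 41.6 in K11 (1.34 ± 0.26, adjusted p = 0.0287). CTSD, also a lysosomal protease, was at least 4.59-fold higher in K11-5 than in K11 (adjusted p = 0.0336). Its wild type signals were 68.4 and 41.1.

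Genes of innate sensing went both ways among those picked. NOD1, a sensor of bacterial cell wall fragments, had 66.2 and 84.2 in K11-5, 23.8 and 15.1 in K11, and 42.8 and 32.5 in wild type, and rose by 1.87 ± 0.33 (limma's adjusted p = 0.0182). LBP, which binds lipopolysaccharide, was at least 1.89-fold higher in K11-5 than in K11 (adjusted p = 0.0477). TLR7, a receptor for single-stranded RNA, had 17.6 and 16.4 in K11-5, 136 and 191 in K11, and 47.5 and 69.3 in wild type, and fell by 3.10 ± 0.30 (limma's adjusted p = 0.00144). LY96, the partner of TLR4, had 561 and 450.2 in K11-5, 1426 and 1063 in K11, and 1444 and 1550 in wild type, and fell by 1.29 ± 0.18 (adjusted p = 0.00714). IFI30, a reductase that prepares antigens for MHC class II, had 93.5 and 88.9 in K11-5, 569.5 and 450.4 in K11, and 222.5 and 349 in wild type, and fell by 2.45 ± 0.24 (adjusted p = 0.00156). In all 3 the K11-5 arrays were the lowest. TRAF5, an adaptor of TNF receptors, fell by 2.54 ± 0.38, and LAPTM5, a lysosomal protein of lymphocytes that limits receptor signalling, fell by 1.64 ± 0.21 (adjusted p = 0.0103 and 0.00499). GPX1, a glutathione peroxidase, was bright in K11-5 and wild type and dimmer in K11, with 737 and 877 in K11-5, 338 and 361 in K11, and 867 and 919 in wild type (1.20 ± 0.16, adjusted p = 0.00562).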
